A study of Mus musculus with 141 samples.

Results

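The 37 genes described here encode the enzymes that break down glucose (glycolysis), those that make it anew (gluconeogenesis), those that store it as glycogen and release it, and a few of their regulators. They were chosen by name from the pathway and were found under those names among the 24423 genes quantified. Expression was measured by RNA-seq in whole liver, lung and kidney of 47 Collaborative Cross (CC) strains, recombinant inbred mice that each carry a fixed mosaic of the same founder genomes. Each strain was represented by 1 male mouse that gave all 3 tissues, so there were 3 groups of 47 libraries. The mice carried no engineered allele, were 8 to 12 weeks old, ate a standard wafer diet and were placed in chambers with clean air for 6 hours a day on weekdays over 2 weeks, and these conditions were shared by all 3 groups. Because a strain was 1 mouse, the effect of the genotype, of the single animal and of the single library cannot be told apart in a value for a strain. The feeding state of the mice at collection was not given in the sources used here.

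Glycolysis and gluconeogenesis share most of their steps, which run in either direction, and differ at a few steps that each have a separate enzyme for each direction. Liver and kidney are the organs that release glucose made by gluconeogenesis into the blood, and liver also releases glucose from its glycogen, while lung takes glucose up and uses it. Many steps are served by several isozymes, which are separate genes for the same reaction, and the liver form and the muscle form of an isozyme differ in their regulation.

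The livers were sequenced to a median total of 10423382 counts (1738046 to 42158454), the lungs to 9338124 (2829104 to 17585682) and the kidneys to 8245850 (3046695 to 15028553). A value of 3 counts or fewer was treated as not resolved, which at the median depth is 0.288 CPM (counts scaled to library size) in liver, 0.321 in lung and 0.364 in kidney, and this limit covers counting error only. The tissue labels matched the defining markers in every tissue: the summed CPM of *Alb*, *Apoa1*, *Ttr* and *Cps1* was at least 52941 in each liver and at most 601 in a lung and 1002 in a kidney, the summed lung markers were at least 5877 in each lung and at most 156 elsewhere, and the summed kidney markers were at least 7918 in each kidney and at most 703 elsewhere. A pair of strains was doubted for another reason. The deviations of the CC032 liver from the liver mean hardly correlated with those of the lung (r = 0.00826) and kidney (r = -0.0306) of the same mouse, the lowest of 47 strains in each case, and those of the CC042 lung hardly with its own kidney (r = 0.0204, the lowest) and liver (r = 0.0426, the second lowest), against medians over the strains of 0.166 (liver with lung), 0.173 (liver with kidney) and 0.211 (lung with kidney). The counts of members that differed between tissues were the same with and without these strains (13 and 10, 4 and 9, 3 and 14, in the order given below).

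What could be read for a member depended on how many transcripts the files name for it. Of the 37 members, 20 had 1 transcript and 17 had several. Among the former, 19 of 20 had a median above 1 CPM over all libraries, and among the latter 6 of 17. Over the whole series the same held: 48.0% of the 18311 genes with 1 transcript had a median above 1 CPM, against 22.3% of the 6112 genes with several. The authors counted uniquely aligned reads, and whether this lowered the counts of genes with several transcripts was not tested. *Gapdh*, the glyceraldehyde-3-phosphate dehydrogenase that is among the most abundant transcripts of most cells, was listed at 0 counts in 30 of 47 livers, 29 lungs and 25 kidneys, and *Pklr*, the pyruvate kinase of liver, reached at most 1 count in any liver and was at 0 in every lung and kidney. The values of the members with several transcripts are therefore given only as values within 1 gene, and levels are compared between genes, in TPM, the unit that scales for transcript length and library size, only among members with 1 transcript. A second limit was sequence shared with copies elsewhere in the genome. In the NCBIM37 build, 92.9% of the 50-base windows of *Pgk1*, 91.5% of *Pgam1*, 85.6% of *Gapdh*, 58.1% of *Eno1*, 23.1% of *Tpi1* and 16.1% of *Gpi1* occurred more than once, so the levels of these genes are uncertain. Such windows made up 0.866% of *Gckr*, 0.613% of *Pck1* and 0.252% of *Pygl*, and 0% of *G6pc*, *Fbp1*, *Fbp2*, *Gys1*, *Gys2*, *Hk2* and *Pck2*.

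Sequences around the transcription start were examined for the members. The promoter windows of RefSeq (build GRCm38.p6, C57BL/6J reference, 250 bases before to 50 after a start, not the build of the files) held an entry for 36 of the 37 members, with 55 windows in all, and none for *Gys2*. They were searched on both strands for GTTAAT, the core of the site bound by the liver and kidney factor HNF1. It was found in 5 members, each shown here 5′ to 3′ on the strand of the gene, with the searched motifs in capitals (GTTAAT, or ATTAAC where it lies on the other strand, and TATAAA or CACGTG where present). The windows are *Pck1* (chr2:173152823-173153122, strand +), *G6pc* (chr11:101367466-101367765, strand +), *Gckr* (chr5:31297313-31297612, strand +), *Pfkfb1* (chrX:150589666-150589965, strand +) and *Khk* (chr5:30921309-30921608, strand +).
Pck1: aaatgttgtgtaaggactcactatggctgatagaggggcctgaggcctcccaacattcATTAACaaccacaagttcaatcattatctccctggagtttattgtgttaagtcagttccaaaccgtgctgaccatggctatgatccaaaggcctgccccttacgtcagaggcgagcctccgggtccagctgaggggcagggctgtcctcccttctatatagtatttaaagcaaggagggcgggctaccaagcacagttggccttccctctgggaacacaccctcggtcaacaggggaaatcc
G6pc: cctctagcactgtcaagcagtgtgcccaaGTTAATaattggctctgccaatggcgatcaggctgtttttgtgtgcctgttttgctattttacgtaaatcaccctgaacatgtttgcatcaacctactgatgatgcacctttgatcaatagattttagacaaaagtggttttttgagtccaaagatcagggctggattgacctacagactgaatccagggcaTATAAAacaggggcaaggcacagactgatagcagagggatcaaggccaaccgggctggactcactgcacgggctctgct
Gckr: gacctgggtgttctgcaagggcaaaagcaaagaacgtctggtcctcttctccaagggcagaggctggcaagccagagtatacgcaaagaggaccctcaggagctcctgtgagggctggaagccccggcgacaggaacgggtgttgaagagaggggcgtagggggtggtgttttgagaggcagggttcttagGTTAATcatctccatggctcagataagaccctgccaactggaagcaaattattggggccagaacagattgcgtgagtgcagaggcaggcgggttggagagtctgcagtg
Pfkfb1: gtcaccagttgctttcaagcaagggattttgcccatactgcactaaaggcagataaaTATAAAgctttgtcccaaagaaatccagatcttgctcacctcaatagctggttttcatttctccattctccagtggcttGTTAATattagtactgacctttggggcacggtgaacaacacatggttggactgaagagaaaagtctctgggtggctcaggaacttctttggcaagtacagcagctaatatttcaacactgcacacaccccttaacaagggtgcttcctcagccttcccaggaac
Khk: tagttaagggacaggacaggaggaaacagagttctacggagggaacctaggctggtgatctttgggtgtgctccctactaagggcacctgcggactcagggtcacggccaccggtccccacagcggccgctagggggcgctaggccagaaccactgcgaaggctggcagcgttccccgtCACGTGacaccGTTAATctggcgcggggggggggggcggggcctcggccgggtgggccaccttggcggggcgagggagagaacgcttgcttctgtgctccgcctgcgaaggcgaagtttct
The match began 192 bases before the start in *Pck1*, 221 in *G6pc*, 59 in *Gckr*, 114 in *Pfkfb1* and 60 in *Khk*. In *Pfkfb1* it was in 1 of 4 windows. All 5 of these genes were called higher in liver than in lung, as were 13 of the 26 members tested and 23.9% of all genes tested. *Pck1*, *G6pc* and *Khk* were also called higher in kidney than in lung. Other members called higher in liver than in lung, such as *Fbp1* and *Pygl*, held no match. Of the 55 member windows 9.09% held the motif, against 7.1% of all 32851 promoters, so it was common outside the pathway too. CACGTG, an E-box, was in 12.7% of the member windows against 7.15%, TGACGTCA, the cAMP response element, in 1.82% against 1.79%, and TATAAA, the TATA box, in 9.09% against 13.6%. A match is a description of these letters in 1 reference strain, and none was tested for binding.

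Tissue differences were tested with limma-voom, with strain as a block, for the 12127 genes that exceeded 1 CPM in 30% or more of the libraries. A gene was called different at a Benjamini-Hochberg q of at most 0.1 and a log2 fold change of at least 1 in either direction. Of the 37 members, 26 passed the count filter, namely all 20 with 1 transcript and 6 with several (*Hk1*, *Pfkp*, *Aldoa*, *Pkm*, *Pcx* and *Khk*). Between liver and lung, 13 of the 26 were higher in liver (*Gckr*, *Pfkfb1*, *Tpi1*, *Pgk1*, *Pgam1*, *Eno1*, *Pcx*, *Pck1*, *Fbp1*, *G6pc*, *Khk*, *Pygl* and *Gys2*) and 10 in lung, where 23.9% and 31% of all tested genes were. Between liver and kidney, 4 were higher in liver and 9 in kidney, with 15.6% and 20.8% of all genes. Between lung and kidney, 3 were higher in lung and 14 in kidney, with 25.5% and 20.6% of all genes. The count for liver against kidney differed by the number of transcripts. Of the 20 members with 1 transcript, 4 were higher in liver (20%) and 5 in kidney (25%), beside 15.6% and 21.3% of all genes with 1 transcript. Of the 6 with several, 0 were higher in liver and 4 in kidney. The median log2 fold change of the 26 members was 1.29 for liver minus lung, -0.24 for liver minus kidney and -1.08 for lung minus kidney, beside -0.055, -0.0034 and 0.039 over all genes. The 3 comparisons share their libraries and are not independent of each other. They also depend on the scaling between tissues. Scaled by total counts in place of TMM, the median of all genes moved to -1.44 for liver minus lung, -0.95 for liver minus kidney and 0.46 for lung minus kidney, and the members called became 12 and 11, 4 and 18, and 3 and 11, with 9.78% and 61.6%, 8.09% and 47.8%, and 33.4% and 15.1% of all genes. Statements on small differences between liver and the other tissues below are therefore made only with their direction on both scales.

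**Figure D1:**
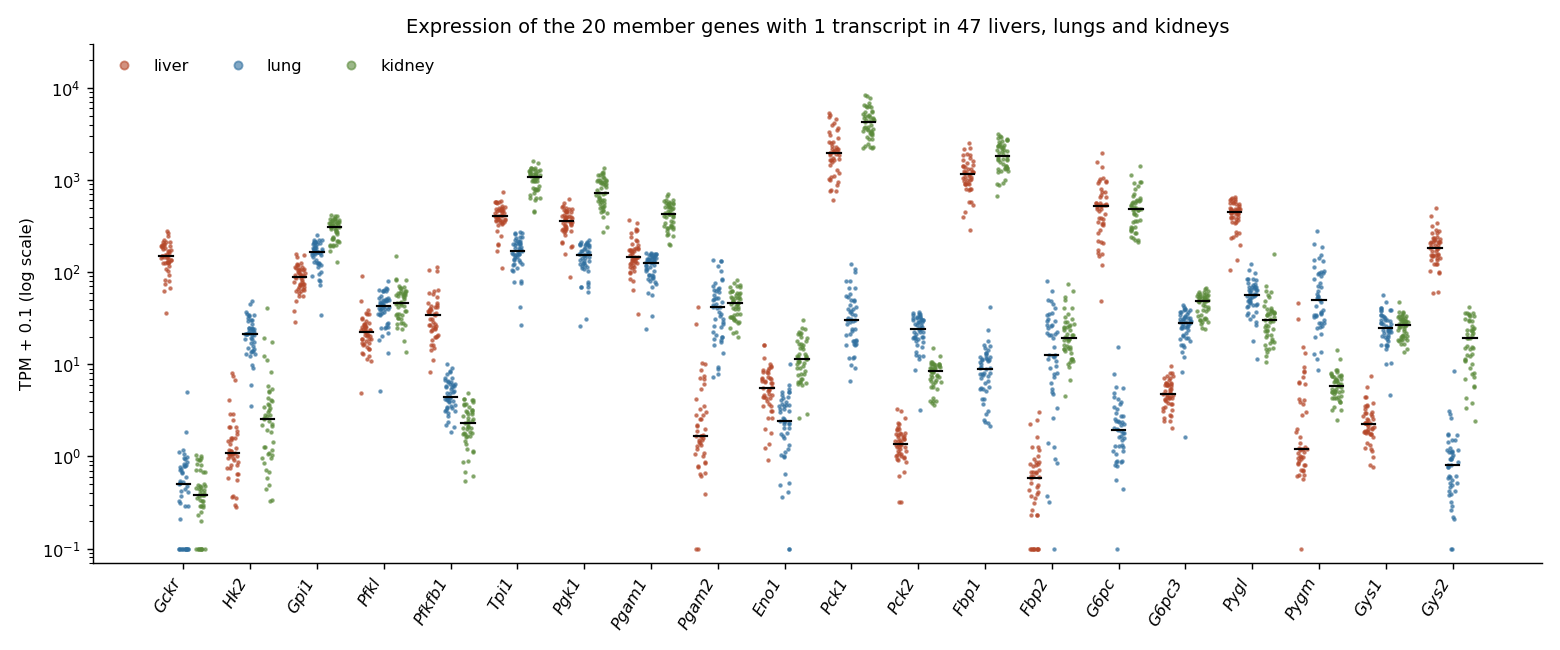
TPM (plus 0.1, log axis) of the 20 members with 1 transcript in each of the 47 livers (red), lungs (blue) and kidneys (green), with the median as a bar. *Pck1*, *Fbp1* and *G6pc* lie between 48.9 and 8447 TPM in every liver and kidney, and *Pygl*, *Gys2* and *Gckr* are highest in liver, with *Gys2* at intermediate levels in kidney.

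*Pck1*, *Fbp1* and *G6pc* were high in liver and kidney and low in lung. *Pck1*, the cytosolic phosphoenolpyruvate carboxykinase that commits carbon to gluconeogenesis (NCBIM37 chr2:172978549-172984774), ranged from 607 to 5313 TPM in liver (median 1987) and from 2205 to 8447 TPM in kidney (median 4230). It ranged from 6.49 to 124 TPM in lung (median 30.5). No lung reached the lowest liver or kidney, and *Pck1* had the highest median of the 20 members in both of those tissues. Its log2 fold change was 7.44 ± 0.11 (SE, n = 47 mice, limma-voom q = 1.91e-80) for liver minus lung and -7.57 ± 0.11 (q = 6.33e-81) for lung minus kidney. Liver and kidney overlapped and did not pass the threshold for *Pck1* on the TMM scale (-0.13 ± 0.11, q = 0.255), and on total counts kidney was higher (-1.09). *Fbp1*, fructose-1,6-bisphosphatase, which reverses the phosphofructokinase step, followed the same order, with medians of 1155 TPM in liver (range 288 to 2550), 1822 TPM in kidney (671 to 3147) and 8.79 TPM in lung (2.05 to 42.3). Its log2 fold change was 8.56 ± 0.082 for liver minus lung (q = 6.04e-99) and -8.30 ± 0.082 for lung minus kidney (q = 1.64e-97). Between liver and kidney it was 0.26 ± 0.07 (q = 0.000576), below the fold threshold, and it turned to -0.68 on total counts. *G6pc*, the catalytic subunit of glucose-6-phosphatase, the last step before glucose leaves the cell, had medians of 526 TPM in liver (48.9 to 1953), 479 TPM in kidney (214 to 1424) and 1.84 TPM in lung (0 to 15.3). Liver exceeded lung in all 47 mice, by 9.44 ± 0.16 on the log2 scale (q = 3.48e-76), and kidney exceeded lung in all 47 (lung minus kidney -8.45 ± 0.16, q = 1.05e-71). Liver exceeded kidney in 40 of 47 mice, by 0.98 ± 0.11 (q = 2.18e-13), just under the fold threshold. This difference was 0.0012 on total counts and -0.022 with log2(TPM + 1).

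The other gluconeogenic members had their own patterns. *Pck2*, the mitochondrial carboxykinase, was highest in lung, with a median of 24.1 TPM (3.1 to 36.6), against 8.41 TPM in kidney (3.48 to 14.8) and 1.27 TPM in liver (0.22 to 3.19). It was higher in lung than in liver in all 47 mice (liver minus lung -2.67 ± 0.057, q = 3.35e-67) and higher in kidney than in liver in all 47 (-1.65 ± 0.057, q = 1.95e-48). Lung minus kidney was 1.02 ± 0.055 (q = 2.7e-33), with lung higher in all 47, and this value sits at the fold threshold: it ranged from 0.99 to 1.04 when each strain was left out in turn and stayed called in 39 of 47 cases. *Fbp2*, the muscle form of fructose bisphosphatase, which lies beside *Fbp1* on chromosome 13 (NCBIM37 chr13:62938244-62959760 and chr13:62966113-62989642, both on the minus strand), was not high in liver. It had a median of 0.48 TPM in liver, where 35 of 47 libraries held 3 counts or fewer, 12.5 TPM in lung (0 to 80.4) and 19.3 TPM in kidney (4.46 to 73.8). Its log2 fold change was -3.30 ± 0.34 for liver minus lung (q = 4.31e-16) and -4.31 ± 0.34 for liver minus kidney (q = 3.16e-22). Lung minus kidney was -1.0 ± 0.32 (q = 0.00287) and was called in only 27 of the 47 fits that left out a strain. *G6pc3*, the glucose-6-phosphatase subunit found in most tissues, was highest in kidney, with a median of 49.1 TPM against 28.1 in lung and 4.63 in liver, and kidney exceeded liver in all 47 mice (liver minus kidney -2.25 ± 0.05, q = 8.22e-66). *Pcx*, pyruvate carboxylase, which supplies oxaloacetate, has several transcripts and low counts, but was higher in liver than in lung (3.45 ± 0.14, q = 3.28e-42) and higher in kidney than in lung (lung minus kidney -3.01 ± 0.14, q = 2.76e-37). Between liver and kidney its value was 0.44 ± 0.14 (q = 0.00283) with TMM and -0.50 on total counts. *Slc37a4*, the transporter that brings glucose-6-phosphate to the phosphatase, has several transcripts, had medians of 2 counts in each tissue and was not tested.

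*Khk*, ketohexokinase, which feeds dietary fructose into these pathways, was higher in liver (median 18.0 CPM, range 7.51 to 39.5) and kidney (14.2 CPM, 1.44 to 28.8) than in lung (0.358 CPM, 0 to 1.2). Liver minus lung was 5.6 ± 0.11 (q = 4.63e-72) and lung minus kidney -5.18 ± 0.11 (q = 6.77e-69). Liver minus kidney was 0.42 ± 0.086 (q = 5.86e-06) and turned to -0.55 on total counts.

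The 4 members called higher in liver than in kidney, a share near that of all genes (15.6%), were *Gckr*, *Pfkfb1*, *Pygl* and *Gys2*, and all 4 were also called higher in liver than in lung. *Gys2*, the liver glycogen synthase, had a median of 184 TPM in liver (59.4 to 493), 19 TPM in kidney (2.33 to 41.9) and 0.71 TPM in lung (0 to 8.4). The liver range did not overlap either other range, and liver minus kidney was 4.45 ± 0.11 (q = 3.98e-63). Lung minus kidney was -4.96 ± 0.14 (q = 1.6e-55), with 17 of 47 lungs at 3 counts or fewer. *Pygl*, the liver glycogen phosphorylase, had a median of 448 TPM in liver (106 to 651), 57.1 TPM in lung (11.4 to 123) and 30.1 TPM in kidney (10.5 to 157). Liver minus lung was 4.43 ± 0.076 (q = 2.61e-76) and liver minus kidney 4.74 ± 0.076 (q = 1.12e-78), with liver higher in all 47 mice in each comparison. *Gckr*, the protein that holds the liver glucose-phosphorylating enzyme in the nucleus, had a median of 149 TPM in liver (36.1 to 282), 0.4 TPM in lung (0 to 4.92) and 0.28 TPM in kidney (0 to 0.93). In lung 31 of 47 libraries and in kidney 37 of 47 held 3 counts or fewer for *Gckr*, so its log2 fold changes of 9.91 ± 0.11 over lung (q = 2.7e-94) and 9.65 ± 0.11 over kidney (q = 1.84e-92) rest on values near the counting limit, and lung and kidney were not resolved from each other. *Pfkfb1*, the liver form of the enzyme that makes and removes fructose-2,6-bisphosphate, the signal that favours glycolysis, had medians of 34.6 TPM in liver (8.19 to 113), 4.37 TPM in lung (1.73 to 10) and 2.19 TPM in kidney (0.44 to 4.8). Liver exceeded both other tissues in all 47 mice (4.27 ± 0.083 over lung, q = 4.66e-71, and 4.94 ± 0.086 over kidney, q = 3.14e-75).

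The 9 members called higher in kidney than in liver were *Hk1*, *Pfkp*, *Aldoa*, *Pgam2*, *Pkm*, *Pck2*, *Fbp2*, *G6pc3* and *Gys1*. *Gys1*, the synthase of muscle and most other tissues, had medians of 24.8 TPM in lung (4.56 to 56.5), 26.3 TPM in kidney (13.6 to 47.3) and 2.13 TPM in liver (0.66 to 7.38), and liver was lower than lung by a log2 fold change of -2.04 ± 0.072 (q = 4.07e-48) and lower than kidney by -2.58 ± 0.072 (q = 8.98e-57). *Pygm*, the muscle phosphorylase, had medians of 50 TPM in lung (8.64 to 278), 5.73 TPM in kidney (2.36 to 14.3) and 1.1 TPM in liver (0 to 46). Lung was higher than liver (liver minus lung -2.93 ± 0.20, q = 2.86e-26) and higher than kidney in all 47 mice (2.81 ± 0.19, q = 1.21e-25). Liver minus kidney was -0.12 ± 0.20 (q = 0.587) for *Pygm* with TMM, and liver was called lower on total counts (-1.42, q = 1.64e-07), log2(TPM + 1) (-1.05, q = 5.11e-07) and log2(TPM + 0.1) (-1.56, q = 3.02e-09). This value also turned on the libraries used, as described with the muscle markers below.

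**Figure D2:**
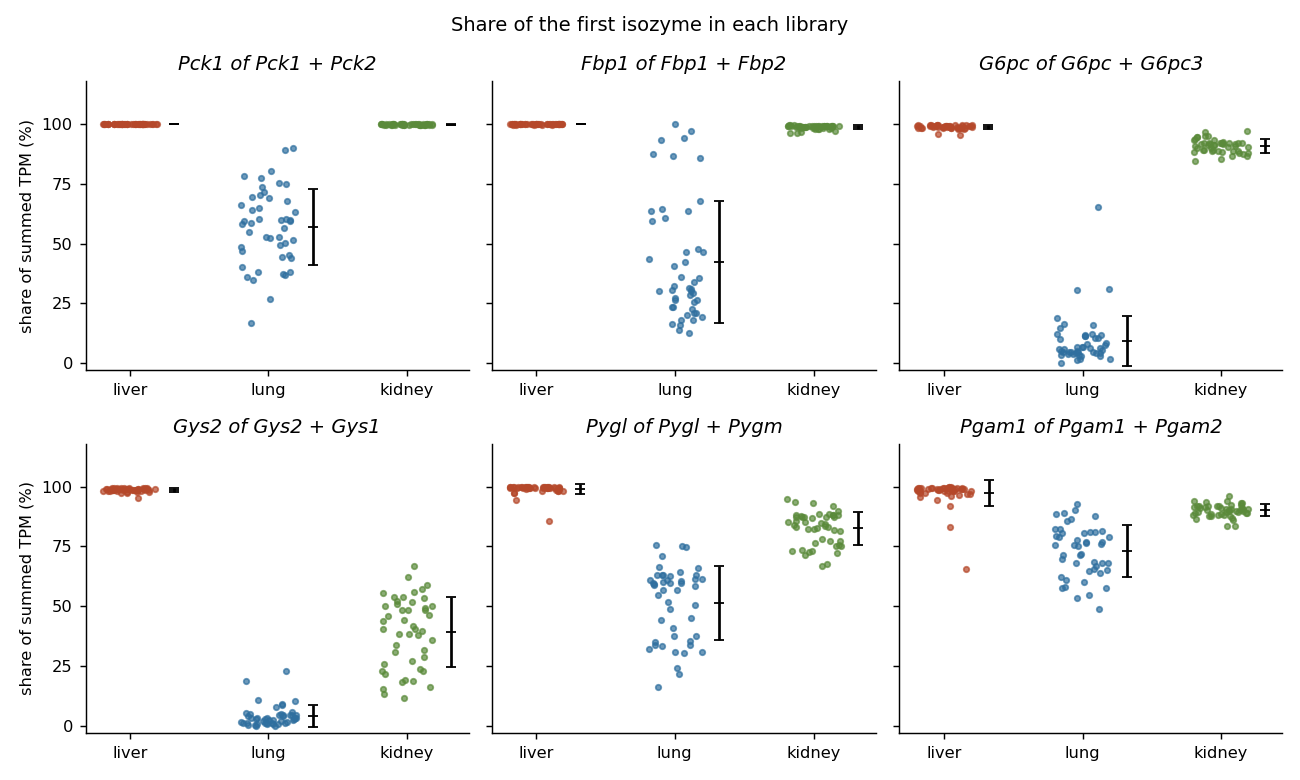
Share (%) of the first-named isozyme in the summed TPM of the pair, 1 point per library, with the mean and SD of the 47 libraries of each tissue beside the points. The first-named isozyme made up at least 65.6% in every liver for each of the 6 pairs, while the lungs spread from 0% to 100%.

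A share within a library does not depend on how the tissues are scaled. Expressed so, *Gys2* made up 98.7% ± 0.724 (SD, n = 47) of the summed synthase TPM in liver, 39.2% ± 14.6 in kidney and 4.03% ± 4.44 in lung. *Pygl* made up 99.0% ± 2.2 of the summed *Pygl* and *Pygm* TPM in liver, 82.6% ± 7.0 in kidney and 51.3% ± 15.4 in lung. Any phosphorylase gene outside the members is not part of this share. Within these pairs, the kidney thus carried more *Pygl* than *Pygm* and on average more *Gys1* than *Gys2*. For the gluconeogenic pairs, *Pck1* made up 99.9% ± 0.0437 in liver, 99.8% ± 0.0704 in kidney and 56.9% ± 15.9 in lung. *Fbp1* made up 99.9% ± 0.1 in liver, 98.7% ± 0.777 in kidney and 42.3% ± 25.5 in lung, and *G6pc* 98.8% ± 0.827, 90.9% ± 2.77 and 9.32% ± 10.5. In lung the shares of single libraries ranged from 16.9% to 89.9% for *Pck1*, from 12.7% to 100% for *Fbp1* and from 0% to 65.4% for *G6pc*. *Pgam1*, the phosphoglycerate mutase of most tissues, whose level is uncertain because of its copies, made up 97.4% ± 5.45 in liver, 90.1% ± 2.55 in kidney and 73.1% ± 10.7 in lung against the muscle form *Pgam2*. Each of these 6 shares differed between every pair of tissues (permutation test of sign changes within mice, n = 47, two-sided, p = 1e-05, the smallest that 100000 resamples can give, q = 1.54e-05 over all isozyme shares).

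Of the enzymes of the shared trunk of glycolysis, *Tpi1*, *Pgk1*, *Pgam1* and *Eno1* were called higher in liver than in lung and higher in kidney than in lung with TMM, while *Gpi1* was called only higher in kidney than in lung, and *Aldoa*, with several transcripts, was called lower in liver than in lung. *Tpi1*, triose-phosphate isomerase, had medians of 1069 TPM in kidney (447 to 1617), 412 TPM in liver (112 to 741) and 169 TPM in lung (26.5 to 272). Kidney exceeded lung in all 47 mice (lung minus kidney -3.19 ± 0.046, q = 1.07e-82), and so did liver (2.83 ± 0.046, q = 3.05e-78). Liver minus kidney was -0.35 ± 0.046 (q = 1.77e-11). *Pgk1*, phosphoglycerate kinase, which makes ATP, had medians of 731 TPM in kidney (274 to 1352), 363 TPM in liver (88.2 to 624) and 153 TPM in lung (26.2 to 222), with a log2 fold change of 2.85 ± 0.049 for liver minus lung (q = 6.84e-76) and -2.97 ± 0.049 for lung minus kidney (q = 2.55e-77). *Pgam1* had medians of 429 TPM in kidney (196 to 709), 145 TPM in liver (35.4 to 366) and 125 TPM in lung (24.3 to 163). Its liver minus lung value of 1.96 ± 0.046 (q = 1.53e-63) fell to 0.59 on total counts, under the fold threshold, while lung minus kidney (-2.42 ± 0.046, q = 8.19e-72) stayed called. *Eno1*, enolase, had low values for a gene of this pathway, with medians of 11.3 TPM in kidney, 5.48 TPM in liver and 2.31 TPM in lung, and the files list a near copy, *Eno1b*, as a separate gene. On all 4 of these genes the liver and kidney differed by less than the fold threshold with TMM, and kidney was called higher on total counts (log2 fold changes of liver minus kidney from -1.42 for *Pgam1* to -1.05 for *Pgk1*). *Gpi1*, glucose-6-phosphate isomerase, had medians of 311 TPM in kidney (130 to 420), 164 TPM in lung (34.4 to 255) and 87.8 TPM in liver (28.4 to 156), and was called higher in kidney than in lung (lung minus kidney -1.44 ± 0.042, q = 9.67e-55). For liver against lung its direction depended on the scale, at 0.63 ± 0.042 with TMM (q = 2.3e-26) and -0.73 on total counts. *Pfkl*, the liver phosphofructokinase, had medians of 46.6 TPM in kidney (13.6 to 151), 42.7 TPM in lung (5.05 to 80.9) and 22.3 TPM in liver (4.72 to 91). It was not called in any comparison with TMM, and its liver minus lung value of 0.61 ± 0.072 (q = 2.99e-13) likewise turned to -0.73 on total counts.

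**Figure D3:**
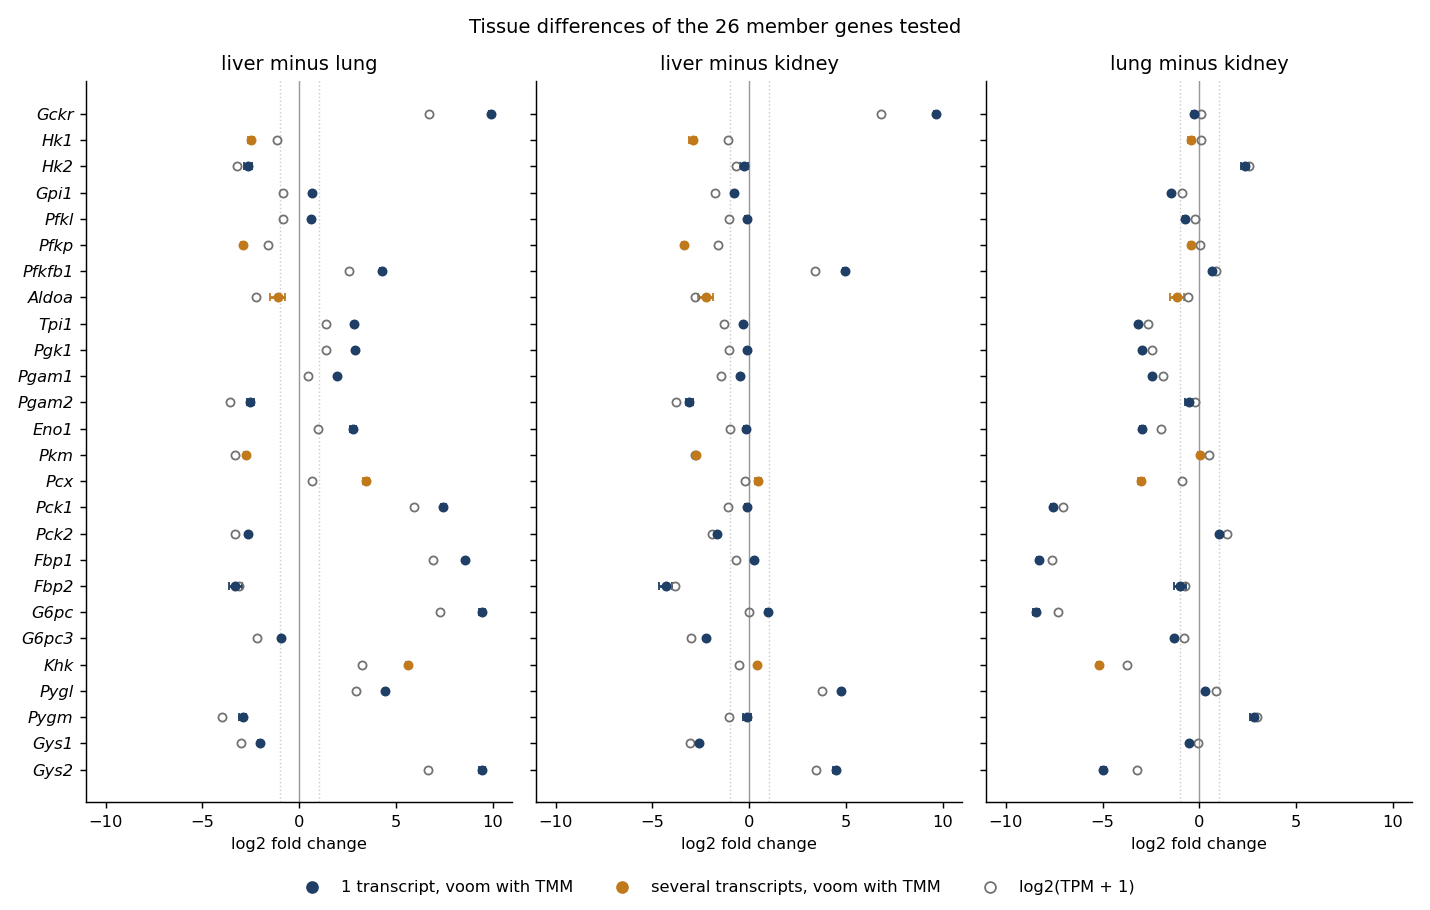
Log2 fold change (axis in log2 units) of the 26 members tested in the 3 tissue comparisons, from limma-voom with TMM (filled points with SE, n = 47 mice, blue for members with 1 transcript and orange for several) and from log2(TPM + 1) without TMM (open points), with dotted lines at -1 and 1. The open points lie to the left of the filled ones for *Gpi1* and *Pfkl* in liver minus lung, where they cross 0.

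Among the hexokinases, *Hk2*, the insulin-responsive form of muscle and fat, was highest in lung, with a median of 21.3 TPM (3.39 to 48.1). It had medians of 2.45 TPM in kidney (0.23 to 40.9) and 0.98 TPM in liver (0.18 to 8.03). Lung exceeded liver in 45 of 47 mice (liver minus lung -2.64 ± 0.20, q = 4.54e-23) and kidney in 45 of 47 (2.35 ± 0.20, q = 3.38e-20). Liver and kidney were not resolved on the TMM scale (-0.29 ± 0.20, q = 0.167), and the value was -1.10 on total counts. *Hk1*, the hexokinase of most tissues, has several transcripts and low counts, with medians of 0.117 CPM in liver, 1.43 CPM in lung and 1.64 CPM in kidney, and was lower in liver than in lung (-2.50 ± 0.17, q = 7.41e-27) and than in kidney (-2.92 ± 0.17, q = 2.22e-31). *Hk3* reached at most 4 counts in any library. Among the other pathway genes listed, *Hkdc1*, a hexokinase-like gene, was higher in lung than in liver in all 47 mice (liver minus lung -3.99 ± 0.13, q = 6.35e-51).

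*Pgam2*, the muscle mutase, had medians of 41.4 TPM in lung (7.27 to 134), 46.3 TPM in kidney (19.9 to 83.1) and 1.57 TPM in liver (0 to 41.6), and was lower in liver than in lung (-2.53 ± 0.19, q = 3.54e-23) and than in kidney (-3.09 ± 0.19, q = 1.03e-28). The remaining members with several transcripts gave few counts. *Pfkp*, the platelet phosphofructokinase, was lower in liver than in lung (-2.91 ± 0.11, q = 1.26e-45) and kidney (-3.36 ± 0.11, q = 1.33e-50), and *Pkm*, the pyruvate kinase of most tissues other than liver, was lower in liver than in lung (-2.77 ± 0.098, q = 4.88e-48) and kidney (-2.76 ± 0.098, q = 1.19e-47). *Pkm* did not differ detectably between lung and kidney (0.0067 ± 0.091, q = 0.946). *Aldoa*, the aldolase of muscle and most tissues, was higher in kidney (median 14.7 CPM) than in lung (6.98 CPM) and liver (3.1 CPM), with 11.1% of its windows shared. Its liver minus lung value was -1.11 ± 0.38 (q = 0.00556, lung higher in 39 of 47 mice) and -2.48 on total counts. Its liver minus kidney value was -2.26 ± 0.38 (q = 8.91e-08), and its lung minus kidney value of -1.16 ± 0.38 (q = 0.00384) fell under the fold threshold on total counts (-0.70). *Pfkm*, *Pfkfb3*, *Aldoc*, *Eno2*, *Eno3*, *Ldha* and *Ldhb*, the muscle phosphofructokinase, the inducible fructose-2,6-bisphosphate enzyme, the brain aldolase, the neuronal and muscle enolases and the lactate dehydrogenase subunits, had medians of 6 counts or fewer in every tissue and were not tested for a fold change. Some of them still differed in rank: *Eno2* had a higher CPM in lung than in liver in 44 of 47 mice, *Eno3* in lung than in kidney in 43 of 47, and *Ldha* in liver than in lung in 39 of 47. For *Ldha* this direction depended on the scale, as its median TPM without TMM was 0.78 in liver and 1.17 in lung. In 15 livers and 13 lungs *Ldha* had 3 counts or fewer.

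Other genes of the same pathways, from a list of 62 of which 61 were in the files and 53 were tested, are given for context. Between liver and lung 32 were higher in liver and 9 in lung, against 23.9% and 31% of all genes. Between liver and kidney 15 were higher in liver and 11 in kidney (15.6% and 20.8% of all genes), and between lung and kidney 6 were higher in lung and 30 in kidney (25.5% and 20.6%). Their median log2 fold change was 1.83, 0.16 and -1.10 in these comparisons. Of 9 transporters of glucose, lactate and pyruvate, 6 were higher in liver than in lung and 7 higher in kidney than in lung. *Slc2a2*, the glucose transporter through which hepatocytes and proximal tubule cells release glucose, had the largest difference over lung in liver (9.64 ± 0.093, q = 1.04e-98) and a large one in kidney (lung minus kidney -7.78 ± 0.093, q = 2.95e-90). *Slc2a5*, the fructose transporter, was higher in kidney than in lung (-8.34 ± 0.13, q = 2.24e-78), while *Slc2a3*, a high-affinity glucose transporter, was higher in lung than in kidney (2.97 ± 0.11, q = 1.32e-47). Of 14 glycogen genes, 6 were higher in liver than in kidney and 1 in kidney, led by *Ppp1r3c* (5.62 ± 0.12, q = 4.18e-66) and *Ppp1r3b* (5.05 ± 0.12, q = 1.14e-63), which bring protein phosphatase to glycogen. *Ppp1r3c* was also higher in lung than in kidney (2.71 ± 0.12, q = 4.54e-39). Of 10 genes of the pyruvate dehydrogenase complex and its kinases and phosphatases, 8 were higher in kidney than in lung and 0 in lung, and *Pdk3*, a kinase that inactivates the complex, was higher in kidney than in liver (liver minus kidney -6.19 ± 0.095, q = 3.42e-80). Among the regulators, *Gcgr*, the glucagon receptor (8.16 ± 0.084, q = 4.93e-96), and *Mlxipl*, the carbohydrate-responsive factor ChREBP (6.11 ± 0.081, q = 1.52e-86), were higher in liver than in lung, and *Gcgr* was also higher in liver than in kidney (3.91 ± 0.068, q = 2.36e-75).

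The spread between strains, as the SD of log2 CPM over 47 libraries, had a median over the members past the expression filter of 0.48 in liver (20 members), 0.514 in lung (25) and 0.511 in kidney (25), beside 0.385, 0.353 and 0.358 over all genes past that filter. This spread holds genetic, environmental and technical differences together. The trunk enzymes were spread unequally. *Tpi1* had the smallest SD of the members in liver (0.211), *Pgam1* in lung (0.184) and *Gpi1* in kidney (0.187). *Tpi1* in lung and *Pgam1* in liver lay near the median of all genes, with a smaller SD in 47.9% and 48.3% of genes. *Eno1*, at low counts, had an SD of 0.759 in liver, 1.12 in lung and 0.671 in kidney, and *Aldoa* 0.968, 0.995 and 1.19. *Gckr* (0.262) and *Pygl* (0.256) also varied little in liver. *G6pc* varied most among the gluconeogenic genes of liver, with an SD of 0.864, the lowest level in CC025 and the highest in CC015 (2639 CPM), while *Pck1* had an SD of 0.637 and also peaked in CC015 (8335 CPM). In kidney *G6pc* had an SD of 0.558 and *Pck1* of 0.368. The widest spread of a tissue among the members was that of a muscle isozyme in liver and lung and of *Hk2* in kidney. *Pygm* (1.77, 0 to 124 CPM) and *Pgam2* (1.58, 0 to 34 CPM) varied most in liver, *Fbp2* (1.90, 0 to 17.2 CPM) in lung and *Hk2* (1.52, 0.352 to 55.6 CPM) in kidney, and at least 97.8% of all genes had a smaller SD than each of these in its tissue. At 3 counts or fewer lay 15 of 47 livers for *Pgam2*, 3 livers for *Pygm*, 6 lungs for *Fbp2* and 1 kidney for *Hk2*. The SD of *Pgam2* in liver thus rests partly on values that were not resolved. In lung, *G6pc* (1.14) and *Pck1* (1.05) were next after *Fbp2* apart from *Eno1*, ahead of *Pygm* (0.931) and *Pgam2* (0.897), and in kidney *Pgam2* (0.41) and *Pygm* (0.338) were spread far less than in liver. *Gys2* in kidney had an SD of 0.913, with a range from 2.56 CPM in CC015 to 32.3 CPM in CC035.

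**Figure D4:**
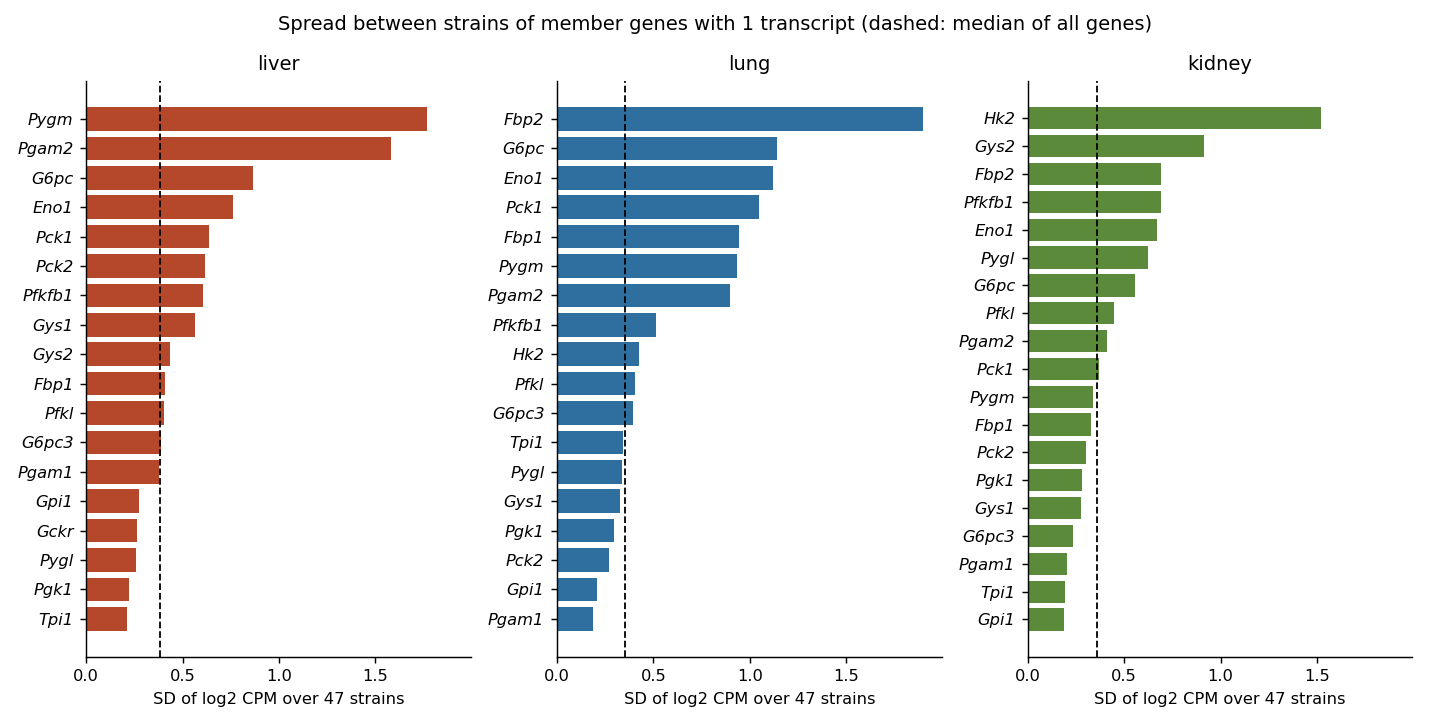
SD of log2 CPM over the 47 libraries of each tissue for the members with 1 transcript that passed the expression filter, sorted within the tissue, with the median of all genes as a dashed line. *Pygm* in liver (1.77), *Fbp2* in lung (1.90) and *Hk2* in kidney (1.52) stand at the top, with *Tpi1* in liver (0.211), *Pgam1* in lung (0.184) and *Gpi1* in kidney (0.187) at the bottom.

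Several of these genes varied together with markers of cells other than the main cells of the tissue. In bulk tissue, fewer cells of a type and less RNA per cell cannot be told apart. Correlations across strains were taken on rank-based inverse normal values of TMM-normalized TPM for the members and of summed CPM for the markers, within a tissue. In liver, the summed level of 11 markers of cardiac and skeletal muscle ranged from 0 to 1084 CPM with a median of 6.8. *Ckm* and *Myh4*, of skeletal muscle, reached 353 and 692 CPM, and *Actc1*, of cardiac muscle, reached 20.1 CPM (in CC041) with a median of 0.378. The cardiac markers *Myl7*, *Myl4* and *Tnni3*, with 1 transcript each, reached at most 1.7, 1.87 and 1.25 CPM in a liver, beside medians of 54.2, 53.9 and 28.1 CPM in lung. *Myh6* and *Tnnt2* were at 0 in all 47 livers, but both have several transcripts and *Tnnt2* was at 0 in 46 of 47 lungs as well, so these zeros do not bear on cardiac muscle. The highest liver was that of CC031, which also had the highest liver values of *Pygm* (124 CPM), *Pgam2* (34 CPM), *Hk2* (38.7 CPM), *Gys1* (25.6 CPM) and *Fbp2* (2.81 CPM), the lowest summed liver markers (52941 CPM) and the lowest *Fbp1* (548 CPM). Across the 47 livers, the muscle sum correlated with *Pygm* (r = 0.802, rho = 0.847, permutation p = 1e-05, q = 0.000778, r = 0.824 without the 2 farthest strains), *Pgam2* (r = 0.671, rho = 0.695, permutation p = 1e-05, q = 0.000778, r = 0.634 without the 2 farthest) and *Gys1* (r = 0.463, rho = 0.416, permutation p = 0.00087, q = 0.0321, r = 0.418 without the 2 farthest). These relations belong to 700 pairs of a member and a marker list, examined after the values were seen, of which 30 reached q of at most 0.1, all of them positive. In 9 livers (CC011, CC012, CC015, CC031, CC037, CC041, CC045, CC046 and CC068) the muscle sum was over 10 times the median, and in 4 kidneys (CC028, CC038, CC043 and CC059) the adipose sum was over 3 times the median. Without these 13 strains, *Pygm* was called lower in liver than in kidney, with -1.21 (q = 7.69e-09) in place of -0.12. For liver minus lung the value of *Pygm* moved from -2.93 to -3.86 and that of *Pgam2* from -2.53 to -3.21, and the members called were 13 and 10, 4 and 10, and 2 and 13, with 23.6% and 31.3%, 14.8% and 21.8%, and 25% and 21.3% of all genes. This comparison was also chosen after the values were seen. The 9 livers were left out for a muscle sum that rose with *Pygm* and *Pgam2* in the same livers. Lower liver values of these genes without those livers thus followed from the choice and are not a separate test.

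In kidney, *Hk2* was highest in CC038 (55.6 CPM), CC059 (43.8 CPM), CC029 (30.3 CPM) and CC028 (28.1 CPM), and no other kidney exceeded 15.6 CPM. The summed adipose markers (*Adipoq*, *Plin1*, *Cfd*, *Retn* and *Cidec*) ranged from 0.376 to 56.0 CPM in kidney (median 7.57). They were highest in CC059 and CC038 (41.5 CPM). The sum was mostly *Adipoq*, with a median of 6.89 CPM and 52.6 CPM in CC059. *Plin1*, *Cfd* and *Cidec* were at 3 counts or fewer in 45, 43 and 46 of the 47 kidneys, so the relations below rest largely on 1 gene. *Hk2* correlated with this sum across the 47 kidneys (r = 0.808, rho = 0.801, permutation p = 1e-05, q = 0.000778), and still did without the 2 farthest strains (r = 0.797). So did *Pygl* (r = 0.611, rho = 0.636, permutation p = 2e-05, q = 0.00127, r = 0.565 without the 2 farthest), which was also highest in CC038 (108 CPM), *Pfkfb1* (r = 0.512, rho = 0.518, permutation p = 0.00036, q = 0.014, r = 0.520) and *Pfkl* (r = 0.425, rho = 0.412, permutation p = 0.00255, q = 0.0687, r = 0.385). These 4 were the members that passed among 25 set against the adipose markers in kidney, examined after the values were seen. *Pck1*, the member listed with these markers in kidney, did not pass (r = 0.256, rho = 0.253, permutation p = 0.082, q = 0.13, r = 0.279 without the 2 farthest). The part of fat in the values of these genes was not tested. Without the 13 strains, *Hk2* remained higher in lung than in kidney (2.52 in place of 2.35). Some of these strains were left out for a high adipose sum, with which *Hk2* rose, so this move is not a separate test.

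The gluconeogenic genes of the kidney varied with markers of the proximal tubule, the segment that carries out renal gluconeogenesis. The summed level of its 5 markers ranged from 5973 to 15244 CPM (median 11968). *Fbp1* correlated with it most closely (r = 0.724, rho = 0.687, permutation p = 1e-05, q = 4.75e-05 over the 19 listed relations of a member with a marker sum, r = 0.643 without the 2 farthest strains). *G6pc* followed (r = 0.458, rho = 0.434, permutation p = 0.00129, q = 0.0049, r = 0.456 without the 2 farthest) and then *Pck1* (r = 0.358, rho = 0.311, permutation p = 0.0133, q = 0.0316, r = 0.310 without the 2 farthest). The *Pck1* relation did not pass without the strains with a library under 4000000 counts (r = 0.252, q = 0.218) or on TPM without TMM (r = 0.244, q = 0.189). *Hk1* correlated with markers of the distal nephron (r = 0.436, rho = 0.427, permutation p = 0.00236, q = 0.00747, r = 0.320 without the 2 farthest), whose cells use glucose. Of the other members listed with these markers, *Pkm* passed (r = 0.301, rho = 0.323, permutation p = 0.0393, q = 0.0748, r = 0.387), but not on log2(TPM + 1) (r = 0.258, q = 0.127). *Ldha*, at low counts, did not pass (r = 0.187, rho = 0.203, permutation p = 0.21, q = 0.249, r = 0.176).

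In lung, the muscle markers were present in every library, with a sum of 77.4 to 827 CPM (median 301), none of the 11 at 0 throughout and the highest value in CC028. *Pgam2* followed them closely (r = 0.871, rho = 0.877, permutation p = 1e-05, q = 4.75e-05, r = 0.833 without the 2 farthest strains) and was also highest in CC028 (23.2 CPM). *Pygm* followed them too (r = 0.663, rho = 0.646, permutation p = 1e-05, q = 4.75e-05, r = 0.648 without the 2 farthest), as did the trunk enzymes *Tpi1* (r = 0.635, rho = 0.659, permutation p = 1e-05, q = 0.000778 over the 700 pairs, r = 0.586) and *Pgk1* (r = 0.555, rho = 0.580, permutation p = 4e-05, q = 0.002, r = 0.501). *Fbp2*, the gene with the widest spread in lung, did not pass with the muscle markers (r = 0.195, rho = 0.127, permutation p = 0.189, q = 0.249, r = 0.158 without the 2 farthest) or with any other list. The other members listed with the muscle markers, all at low counts, did not pass either. These were *Eno3* (r = 0.257, rho = 0.227, permutation p = 0.0821, q = 0.13), *Pfkm* (r = 0.191, rho = 0.219, permutation p = 0.2, q = 0.249) and *Ldhb* (r = 0.163, rho = 0.135, permutation p = 0.276, q = 0.309). *Pck1* in lung followed the adipose markers (r = 0.696, rho = 0.694, permutation p = 1e-05, q = 4.75e-05, r = 0.605 without the 2 farthest), and both were highest in the CC059 lung (100 CPM of *Pck1* and 34 CPM of adipose markers). Of that adipose sum, *Adipoq* alone was at 31.5 CPM. *G6pc* in lung followed the summed liver markers (r = 0.644, rho = 0.568, permutation p = 2e-05, q = 0.00127, r = 0.567) and the kidney markers (r = 0.647, rho = 0.595, permutation p = 1e-05, q = 0.000778, r = 0.596). The CC010 lung, a library of 2835282 counts, had the highest liver markers (601 CPM) and the highest lung values of *G6pc* (6.08 CPM), *Gys2* (3.91 CPM) and *Gckr* (1.74 CPM). Whether the low lung values of these liver genes came from lung cells was not tested.

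*Pygl* in lung, which myeloid cells also express, correlated with the neutrophil markers (r = 0.416, rho = 0.501, permutation p = 0.00386, q = 0.0105, r = 0.453 without the 2 farthest strains) and the macrophage markers (r = 0.352, rho = 0.358, permutation p = 0.0151, q = 0.0318, r = 0.366), the latter not without the strains with a shallow library (r = 0.317, q = 0.125). Of the 21 listed relations of a member with a marker sum, 19 could be computed and 10 passed q of at most 0.1. *Pklr* with the erythroid markers could not be computed in lung, where it was at 0. *Hk3*, the hexokinase of white blood cells, did not pass with neutrophil (r = 0.122, rho = 0.159, permutation p = 0.411, q = 0.434) or macrophage markers (r = 0.187, rho = 0.180, permutation p = 0.209, q = 0.249) at its counts.

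**Figure D5:**
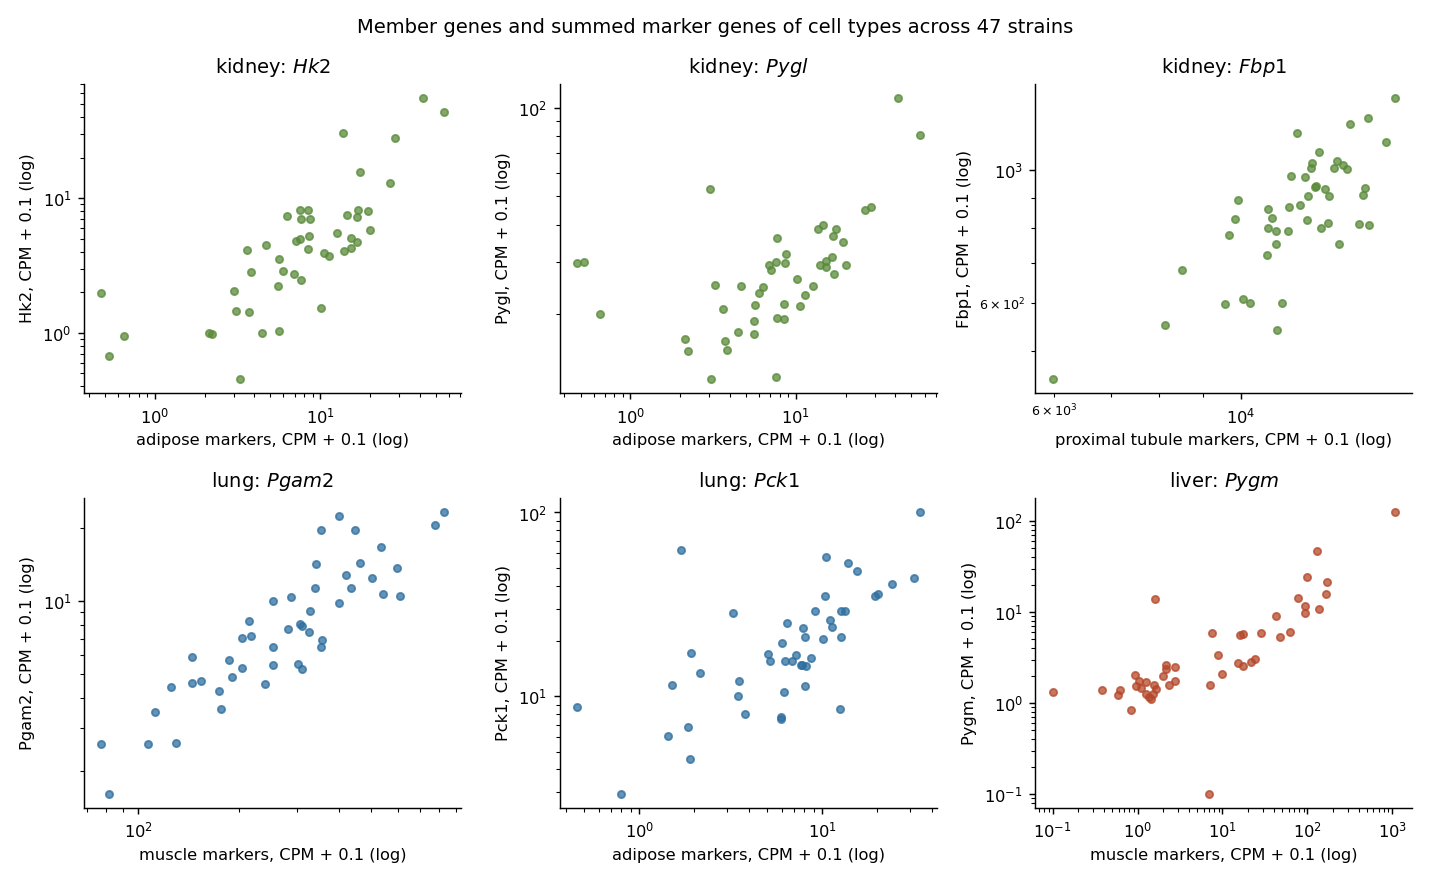
CPM (plus 0.1, both axes log) of 6 members against the summed CPM of a marker list, 1 point per strain, in kidney (green), lung (blue) and liver (red). *Hk2* in kidney rises with the adipose markers (r = 0.808), *Fbp1* in kidney with the proximal tubule markers (r = 0.724), *Pgam2* in lung with the muscle markers (r = 0.871) and *Pygm* in liver with the muscle markers (r = 0.802).

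Of 8 listed pairs of gluconeogenic genes in liver and kidney, 3 passed. In kidney, *Pck1* correlated across strains with *G6pc* (r = 0.521, rho = 0.535, permutation p = 0.00016, q = 0.00176, r = 0.435 without the 2 farthest strains) and with *Fbp1* (r = 0.440, rho = 0.407, permutation p = 0.00187, q = 0.0133, r = 0.381 without the 2 farthest), though the latter did not pass without the strains with a shallow library (r = 0.338, q = 0.24). In liver, *Pck1* correlated with *Fbp1* (r = 0.434, rho = 0.433, permutation p = 0.00241, q = 0.0133, r = 0.473 without the 2 farthest). *Pck1* and *G6pc* in liver did not pass (r = 0.204, rho = 0.141, permutation p = 0.17, q = 0.415, r = 0.0915), and TPM without TMM gave r = 0.459 (q = 0.00361). The difference between liver and kidney in this pair was not tested. *Pck1* with *Pcx* did not pass in liver (r = -0.134, rho = -0.143, permutation p = 0.373, q = 0.546, r = -0.166 without the 2 farthest) or kidney (r = 0.117, rho = 0.0718, permutation p = 0.432, q = 0.594, r = -0.015), nor did *G6pc* with *Slc37a4* in liver (r = 0.306, rho = 0.315, permutation p = 0.0371, q = 0.136, r = 0.299) or kidney (r = -0.158, rho = -0.149, permutation p = 0.29, q = 0.49, r = -0.128), where the counts of *Pcx* and *Slc37a4* were low. In lung, the muscle forms *Pgam2* and *Pygm* correlated (r = 0.804, rho = 0.790, permutation p = 1e-05, q = 0.00022, r = 0.782 without the 2 farthest). *Gys2* and *Pygl*, synthase and phosphorylase of liver, showed no detectable relation across livers (r = -0.00237, rho = -0.0272, permutation p = 0.988, q = 0.988, r = 0.154). In all, 22 of 24 listed pairs could be computed and 5 passed q of at most 0.1, the fifth being *Pgam2* with *Eno3* in lung, which did not pass without the 2 farthest strains (r = 0.339, rho = 0.314, permutation p = 0.0196, q = 0.0864, then r = 0.269 and q = 0.234).

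Whether a strain with a high level of a member in 1 tissue was also high in another was read from correlations between tissues. Of 60 relations between tissues (18 members in liver and lung, 19 in liver and kidney, 23 in lung and kidney), 0 passed q of at most 0.1 by permutation of Pearson's r, and 0 by Spearman's rho. At an unadjusted p of at most 0.05 there were 11 by r and 8 by rho. Between liver and lung the members had a median r of 0.139, between liver and kidney 0.164 and between lung and kidney 0.162, beside 0.138, 0.185 and 0.154 over all genes past the filter. In the same order, r was above 0 for 15 of 18, 16 of 19 and 19 of 23 members, beside 76.9%, 82.4% and 78.5% of those genes. The number that passed turned on the doubted pair of mice: without CC032 and CC042, 10 relations passed by r (q from 0.0768 to 0.0921) and 0 by rho. Of these, 7 joined liver and kidney, namely *Pck1* (r = 0.416), *Fbp1* (r = 0.402), *Khk* (r = 0.401), *Pgk1* (r = 0.389), *Tpi1* (r = 0.381), *Pgam1* (r = 0.377) and *Aldoa* (r = 0.359), and 3 joined lung and kidney, namely *Gpi1* (r = 0.391), *Pkm* (r = 0.379) and *G6pc3* (r = 0.360).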

How the data were processed

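RNA-seq libraries (50-base single-end reads after ribosomal RNA depletion) were made from liver, lung and kidney of 1 male mouse of each of 47 CC strains. The expected counts and TPM values were deposited by the authors, who aligned each library with STAR 2.5.3a to a pseudo-genome of its strain (Build37, mm9) and quantified uniquely aligned reads per gene with RSEM (version not given in the sources used here). The deposited RSEM gene lengths were used only to check the files. Expected counts were rounded (25 were not whole). Groups were taken from the tissue labels, which give no batch.

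The 12127 genes that exceeded 1 CPM in 30% or more of the libraries were fitted with limma 3.58.1 (voom, TMM from edgeR 4.0.16, R 4.3.3) on tissue and strain. The median TMM factor of the livers was 0.643, that of the lungs 1.94 and that of the kidneys 1.32. All 3 tissues came from the same mouse, and deviations from the tissue mean correlated within strains (median r 0.166 between liver and lung, 0.173 between liver and kidney, 0.211 between lung and kidney) and not between strains (-0.00482, -0.00604 and -0.00588). With strain in the fit, its p-values measure how far the differences between tissues of 1 mouse vary from mouse to mouse. The fit was run on simulated data of 12127 genes for liver against lung. Of the 200 changed genes 199 were recovered, with 0 false calls among the unchanged genes. The simulation had no strain effect, and few of its genes were changed, all by more than the fold limit. It therefore does not bear on the scaling between tissues.

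Isozyme shares were compared by sign changes within mice and correlations across strains by permutation (100000 resamples, two-sided, Benjamini-Hochberg adjusted, Python 3.11.15 with scipy 1.17.1). Spread and relations between tissues were taken for genes with a TPM above 1 in over 50% of the libraries of a tissue.

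All members are named. Outside them, only marker genes and, from a list of other pathway genes, at most the 3 largest changes per tissue pair and direction are named. *Eno1b* was named after the values were seen. The members and all lists were chosen with earlier results of these data known. Alternatives were the scaling, the test (edgeR, DESeq2 1.42.0), the filter, the threshold, the strain block and the strains used.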

Additional observations from a re-analysis of the deposited data

How the results depend on the processing

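The members' counts were most sensitive to the scaling between tissues and to the fold threshold. The members called higher in kidney than in liver, 9 with TMM, were 18 on total counts, 16 with log2(TPM + 1), 17 with log2(TPM + 0.1) and 14 by q alone. The share of all genes called so rose as well, from 20.8% to 47.8%, 34.6% and 47% on these scales. Those higher in liver than in kidney were 8 by q alone, those higher in lung than in kidney 5 by q alone, and those higher in kidney than in lung 9 with log2(TPM + 1). Relations between tissues that passed, 0 in the report, were 5 on log2(TPM + 1), 3 on TPM without TMM, 2 without the 2 farthest strains and 10 without CC032 and CC042. Member pairs that passed, 5 in the report, were 9 on TPM without TMM and 3 without the 11 strains with a library under 4000000 counts. The other 112 recomputed counts stayed within 1.5 times, as did all 282 counts with a strain left out.

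Most turns of direction came without TMM. On total counts, log2(TPM + 1) and log2(TPM + 0.1), the log2 fold change of *Gpi1* for liver minus lung was -0.73, -0.84 and -0.85 and that of *Pfkl* -0.73, -0.82 and -0.84. For liver minus kidney, *Pcx* gave -0.50, -0.24 and -0.47, *Fbp1* -0.68, -0.71 and -0.71, *Khk* -0.55, -0.53 and -0.56, and *G6pc*, on both TPM scales, -0.022 and -0.023. For lung minus kidney, *Gckr* gave 0.076, 0.10 and 0.14, *Hk1* 0.0081, 0.063 and 0.085, and *Pfkp*, on both TPM scales, 0.045 and 0.060. *Pygm* for liver minus kidney was 0.18 in a fit of those tissues alone. The median of all genes lay at -1.21, -0.72 and 0.47 with log2(TPM + 1) and at -1.52, -0.94 and 0.56 with log2(TPM + 0.1) for liver minus lung, liver minus kidney and lung minus kidney.

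*Pkm* for lung minus kidney, which lay near 0, was -0.011 with no replicate block, -0.056 with no filter, -0.036 with the pair of tissues alone, -0.026 without the strains with a shallow library, -0.00095 with edgeR and from -0.03 to 0.055 with a strain left out, below 0 in 15 of these fits. Leaving out the replicate block changed no count of members by over 1.5 times and turned no other direction. In all, 921 of the members' fold changes under other settings kept direction and call, 32 gained and 30 lost the call and 31 turned, and with a strain left out 3618 kept both, 5 gained and 28 lost the call. The calls lost there were *Fbp2* for lung minus kidney (values from -1.09 to -0.86, the smallest without CC046) and *Pck2* for lung minus kidney (0.99 to 1.04, lost without CC015, CC023, CC027, CC031, CC032, CC033, CC055 or CC059), and the call gained was *G6pc* for liver minus kidney (0.92 to 1.04, gained without CC025, CC035, CC036, CC061 or CC068). All 105 recomputed share differences stayed as reported. Of the correlations, 84 stayed, 1 gained and 11 lost the call, among them *Pck1* with *Fbp1* in kidney without the shallow libraries (r = 0.338, permutation q = 0.24). The cause of these changes was not tested. Members at or under 3 counts cannot be resolved at this depth.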
